A study of Mus musculus with 5 samples.

Results

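Glul, Axin2, Lgr5, Tbx3, Slc1a2, Rhbg, Oat, Rnf43, Znrf3 and Cyp1a2 are 10 genes known as Wnt targets or Wnt-dependent genes of the pericentral liver, and they were followed here in hepatocytes of postnatal, resting and regenerating mouse liver. They were taken by name, as textbook members of the group, from the 31053 genes listed for each library. All 10 were listed, and all 10 were detected in every library.

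In the liver lobule, endothelial cells of the central vein release Wnt ligands and R-spondins, which stabilise beta-catenin in the nearest hepatocytes and turn on a gene program that portal hepatocytes lack. The most restricted product of that program is glutamine synthetase, encoded by Glul, which is made in a thin ring of hepatocytes around the central vein and captures the ammonia that urea synthesis has left over. Slc1a2 (a glutamate transporter), Rhbg (an ammonia transporter) and Oat (ornithine aminotransferase) serve the same glutamate and ammonia metabolism. Axin2, Rnf43 and Znrf3 are feedback inhibitors of the pathway, Lgr5 is an R-spondin receptor, Tbx3 is a transcription factor, and Cyp1a2 is a drug-metabolising cytochrome P450.

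The data are 10x droplet single-cell RNA sequencing of C57BL/6J liver in 5 libraries, 1 per group, with no genetic change or drug named in any of them. One group was 14 days old (postnatal day 14, P14) and 1 was an adult control. The other 3 were adults operated at 8 weeks of age and sampled 24 h, 48 h or 96 h later, and the operation was partial hepatectomy (PHx), in which a surgeon takes out most of the liver so that the rest regrows. The title and source of the adult control library call it a control, whereas the treatment text counts it among the operated animals; it was used as the control. Its lane code also differs from that of the other 4 libraries, so an effect of the lane cannot be told apart from that of being a control. The labels do not say how many animals went into a library. With 1 library per group no difference could be tested, and all intervals below are exact 95% intervals that cover counting error only.

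Hepatocytes were barcodes with at least 5000 unique molecular identifiers (UMIs, which count captured RNA molecules), 10 to 30% of them mitochondrial, and at least 1% from Alb, Apoa1 and Ttr, 3 secreted proteins of hepatocytes. This gave 5691 cells: P14 gave 2106, the adult control 925, and the libraries after surgery 1170, 719 and 771 in order of time. The median cell had 38922 UMIs at P14 and 18527 to 35432 in the adult libraries, and 3 barcodes in all occurred in more than 1 library. The 6 summed hepatocyte markers made up 40658 to 159960 CPM (UMIs of a gene per 1000000 UMIs of non-mitochondrial genes). Summed markers of T or NK cells stayed at 1.78 to 19 CPM, of endothelial cells at 9.45 to 19.2 CPM and of erythroid cells at 123 to 761 CPM. The cholangiocyte list reached 35.6 to 188 CPM, with Krt19 at 0 in the 4 adult libraries and Krt7 or Epcam or both at 0 in each of them. Nearly all of it was Sox9, at 5.87 CPM at P14 and 18.0 to 33.8 CPM in the adult libraries, and Spp1, at 40.3 CPM at P14, 17.6 CPM in the control and 68.0, 14.1 and 156 CPM after 24 h, 48 h and 96 h. Neutrophil markers differed with surgery, at 10.4 CPM in the control, 101, 188 and 20.8 CPM after 24 h, 48 h and 96 h, and 27.0 CPM at P14, with Ly6g at 0 in the control and at 96 h. Stellate markers were 46.1 CPM at P14 and 3.74 to 11.1 CPM in the adult libraries. Reln alone gave 45.6 CPM of the P14 sum, while Dcn was lower at P14 (0.248 CPM) than in the control (1.58 CPM) and Col1a1 was at 0 in all 5 libraries. The part of these cells in the results was not tested. Free RNA was heaviest in the adult control, where empty droplets held a mean of 1329 UMIs, against 290 to 795 in the other libraries.

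The 250 bases upstream of the start site are shown for 3 members whose levels the results turn on, to set the 2 promoters that hold a T-cell factor (TCF) core motif beside one that does not. TCF proteins are the DNA-binding partners of beta-catenin, and their core was searched as CTTTGA or CTTTGT on either strand. The motif letters are in capitals, the rest is in lower case, and each line runs 5′ to 3′ on the gene's strand (RefSeq, GRCm38.p6).
Slc1a2, chr2:102706188-102706437, plus strand: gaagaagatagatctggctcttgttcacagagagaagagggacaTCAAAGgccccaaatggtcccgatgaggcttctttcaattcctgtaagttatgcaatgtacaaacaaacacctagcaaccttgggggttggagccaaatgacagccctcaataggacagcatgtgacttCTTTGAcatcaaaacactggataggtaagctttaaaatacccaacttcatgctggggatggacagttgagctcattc
Cyp1a2, chr9:57683656-57683905, minus strand: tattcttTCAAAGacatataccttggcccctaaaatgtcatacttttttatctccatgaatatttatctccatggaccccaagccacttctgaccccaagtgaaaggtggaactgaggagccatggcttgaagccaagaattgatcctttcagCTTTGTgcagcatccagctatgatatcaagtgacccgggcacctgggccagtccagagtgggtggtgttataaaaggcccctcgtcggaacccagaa
Glul, chr1:153899679-153899928, plus strand: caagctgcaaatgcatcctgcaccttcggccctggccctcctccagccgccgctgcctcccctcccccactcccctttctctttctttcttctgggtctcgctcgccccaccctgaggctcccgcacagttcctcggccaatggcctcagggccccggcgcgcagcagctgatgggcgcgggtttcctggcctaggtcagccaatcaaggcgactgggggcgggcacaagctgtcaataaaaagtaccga
Slc1a2 held TCAAAG at 206 and CTTTGA at 77 bases upstream, Cyp1a2 held TCAAAG at 243 and CTTTGT at 97 bases upstream, and Glul held neither. The Slc1a2 start used here lies inside the annotated gene body. Promoters were available for 6 of the 10 members, and 4 of these (Glul, Axin2, Oat and Rnf43) had no match in the window. Among all 32851 promoter windows, 27.6% held at least 1 of these motifs and 5.14% held at least 2, so the matches are common. The CAAAG letters of the reverse strand also occur in binding sites of the hepatocyte factor HNF4A. The promoters of Lgr5, Tbx3, Rhbg and Znrf3 were not analysed here.

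The gene bodies lie on chromosome 1 at 153899929-153909723 for Glul, chromosome 2 at 102658239-102790784 for Slc1a2, chromosome 3 at 88242874-88254739 for Rhbg and chromosome 7 at 132557475-132576398 for Oat. Axin2 (108917828-108950783), Rnf43 (87663087-87735539) and Znrf3 (5276329-5444847) all lie on chromosome 11. Lgr5 lies on chromosome 10 at 115450314-115587780, Tbx3 on chromosome 5 at 119670534-119684724 and Cyp1a2 on chromosome 9 at 57676937-57683655 (RefSeq, GRCm38.p6).

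In the hepatocytes defined above, Glul, the enzyme that joins ammonia to glutamate, was lowest at 24 h after surgery and near the control level at 96 h. Its level was 142 CPM at P14 (139 to 145), 229 CPM in the adult control (221 to 237), 103 CPM at 24 h (98.3 to 107), 159 CPM at 48 h (154 to 164) and 214 CPM at 96 h (207 to 222). The order from low to high was 24 h, P14, 48 h, 96 h and control, and only the intervals of 96 h and control overlapped. These intervals take each UMI as a separate draw. Most Glul UMIs came from few cells, and how many of those were captured is not covered. On the log2 scale, with 1 CPM added to each value, the change against the control was -0.68 at P14, -1.15 at 24 h, -0.52 at 48 h and -0.09 at 96 h. With a wider mitochondrial window of 5 to 40% the 24 h value was -0.99, just short of 2-fold. With 10 to 20% mitochondrial UMIs the order changed: 96 h was then lowest at -5.50, from 53 cells of which 1 held 3 or more Glul UMIs of 5000, and 24 h stood at -2.62.

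**Figure D1:**
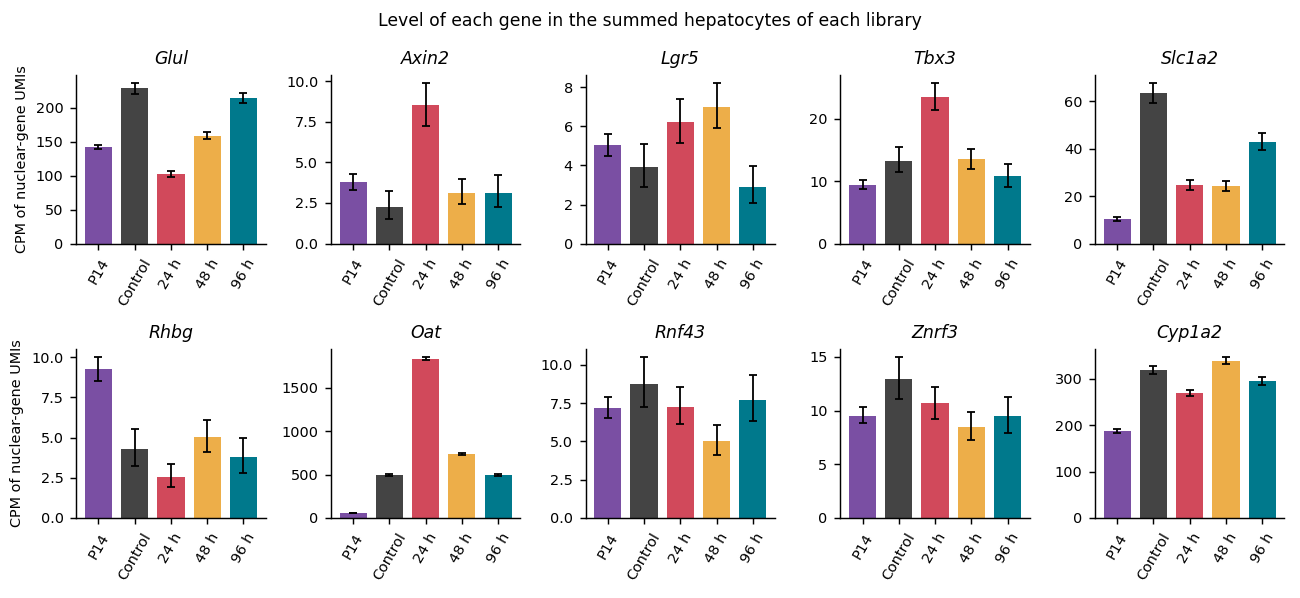
Level of each of the 10 genes (CPM of non-mitochondrial UMIs, linear axes from 0) in the summed hepatocytes of each of the 5 libraries; error bars are exact 95% Poisson intervals, for counting error only. Axin2, Tbx3 and Oat stand highest at 24 h, where Glul stands lowest at 103 CPM.

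Glul RNA was concentrated in few cells. With every cell thinned to 5000 UMIs, cells were called Glul-high at 3 or more Glul UMIs, Glul-low at 1 or 2 and Glul-negative at 0. Glul-high cells were 2.94% of hepatocytes at P14 (62 cells, 2.26 to 3.76%), 2.27% in the control (21 cells, 1.41 to 3.45%), 1.28% at 24 h (15 cells, 0.719 to 2.11%), 2.23% at 48 h (16 cells, 1.28 to 3.59%) and 2.46% at 96 h (19 cells, 1.49 to 3.82%). The intervals of the 4 adult libraries overlapped, so a change in the size of this population after surgery was not detectable at this number of cells; P14 lay above 24 h without overlap. These 133 cells of 5691 held 57.2% of all Glul UMIs at P14, 73.6% in the control, and 71.8%, 79.5% and 87.9% after 24 h, 48 h and 96 h. Within this class, which Glul itself defines, Glul was 2685 CPM at P14, 6021 CPM in the control, and 7313, 5043 and 6526 CPM after surgery. In Glul-negative cells it was 41.4 CPM in the control and 19.3 CPM at 24 h. The lower Glul level of the whole 24 h library was thus not seen within Glul-high cells.

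Cells with any Glul UMI were a larger and less certain class. They made up 23.5% of hepatocytes at P14, 20.9% in the control, and 10.8%, 12.7% and 9.08% after 24 h, 48 h and 96 h (without thinning 73.2%, 51.5%, 30.3%, 44.9% and 27.9%). Free RNA at the load of empty droplets would give 1.01%, 5.89%, 1.40%, 0.534% and 1.60% of cells a Glul UMI. In T or NK barcodes thinned to 2000 UMIs, the share with a Glul UMI was 5.21% at P14, 9.62% in the control, and 6.83%, 4.35% and 5.08% after 24 h, 48 h and 96 h. Hepatocytes at the same depth stood at 10.9%, 10.1%, 6.67%, 6.82% and 5.71%. The T or NK barcodes had median depths of 4766 to 7880 UMIs before thinning. The hepatocyte share lay above the interval of the T or NK share only at 48 h (2.80 to 6.40%), so in the other 4 libraries the share with a Glul UMI at this depth is not read as a share of expressing cells. Glul-low cells as a class differed from Glul-negative cells in some members. Slc1a2 was higher in them by 2.01 log2 units in the control and by 2.68, 4.00 and 2.85 after 24 h, 48 h and 96 h, and stood at -0.33 at P14. Oat was higher by 1.11, 1.31 and 1.92 after surgery and stood at 0.89 in the control and 0.43 at P14. Some differences lay within counting error, among them Axin2 at -0.42 in the control and -0.11 at 48 h, Rnf43 at 0.04 to 0.60 in the 5 libraries and Znrf3 at -0.08 at P14. Axin2 was higher by 0.61 at P14 (0.326 to 1.211). At 96 h Axin2 stood at 6.75 against 1.665 CPM and Znrf3 at 17.36 against 7.907 CPM. Among members at 5 CPM or more in Glul-negative cells, none of 5 was past 2-fold higher at P14 and 1 of 6 in the control. After surgery 3 of 8, 2 of 5 and 5 of 6 were. Under that limit, chosen after seeing the data, 0%, 0.0713%, 0.305%, 0.176% and 1.38% of all genes were higher from P14 to 96 h. At 3 or more Glul UMIs of 2000 the classes separated, with 1 of 1881 T or NK barcodes against 87 of 5691 hepatocytes, and Glul-high cells are the basis of most of what follows.

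**Figure D2:**
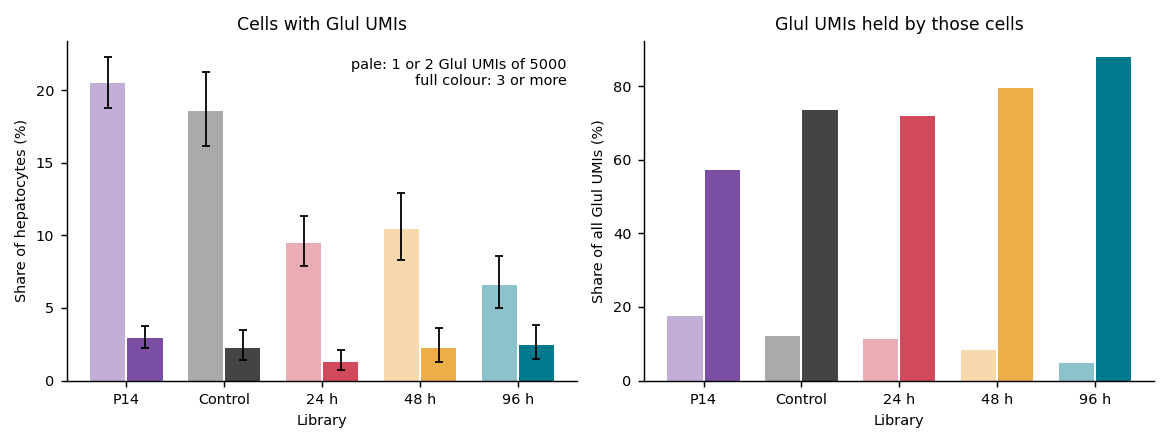
Left, share of hepatocytes (%) with 1 or 2 (pale) and 3 or more (full colour) Glul UMIs of 5000 in each library, with exact 95% binomial intervals; right, share of all Glul UMIs (%) that those cells held. In the main gate Glul-high cells stay between 1.28% and 2.94% of hepatocytes and hold 57.2% to 87.9% of the Glul UMIs.

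Glul-high cells differed from other hepatocytes in the values used to define hepatocytes. Alb, Apoa1 and Ttr together had a median share of 1.44% of UMIs in Glul-high cells of the control, against 2.94% in Glul-negative cells, and 19 of the 21 lay between 1% and 2%. At 24 h 14 of 15 did so, at 48 h 10 of 16, at 96 h 1 of 19 and at P14 none. The median mitochondrial share was also lower in Glul-high than in Glul-negative cells, at 20.4% against 25.7% in the control and 18.6% against 20.7% at P14. Among cells with under 20% mitochondrial UMIs, 9 of 87 in the control were Glul-high, against 6 of 181 at 24 h, 5 of 116 at 48 h and 1 of 53 at 96 h. With 5 to 40% mitochondrial UMIs, 2.61%, 2.01%, 1.32%, 1.89% and 1.66% of hepatocytes were Glul-high from P14 to 96 h. At 96 h that wider window held 30 Glul-high cells of 1811, against 19 in the main gate. Lowering the marker limit of 1% to 0.3% (a check chosen after seeing the data) moved no value by more than its counting interval. Raising it to 3% kept 1 of the 21 control cells, and the levels of the whole library then changed: Glul at P14 went from -0.68 to 1.40 and Slc1a2 at P14 from -2.50 to 0.25 (log2 against the control).

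Slc1a2, which carries glutamate into the cell, had the largest share of its UMIs in Glul-high cells among the members other than Glul, although Rhbg was level with it in the control (56.1% against 56.2%). Its level was 10.4 CPM at P14 (9.62 to 11.2), 63.5 CPM in the control (59.3 to 67.9), 24.6 CPM at 24 h (22.5 to 27.0), 24.1 CPM at 48 h (22.1 to 26.4) and 42.9 CPM at 96 h (39.4 to 46.5). It was past 2-fold lower than in the control at P14, 24 h and 48 h, by -2.50, -1.33 and -1.36 on the log2 scale, and -0.56 at 96 h. The intervals of 24 h and 48 h overlapped.

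The Slc1a2 UMIs came from few cells. Cells with a Slc1a2 UMI of 5000 were 1.04% of hepatocytes at P14, 9.30% in the control, and 3.68%, 2.50% and 3.50% after 24 h, 48 h and 96 h. In the control, free RNA would give 3.87% of cells a UMI and 5.36% of T or NK barcodes had one at 2000 UMIs, against 4.97% of hepatocytes, so the control share is not read as a share of expressing cells. Of the 86 control cells with a Slc1a2 UMI of 5000, 19 were Glul-high and 41 had a Glul UMI, where 20.9% of all control hepatocytes had one. At 24 h and 96 h none of 249 and 256 T or NK barcodes had a Slc1a2 UMI. Glul-high cells held 96.4% of the Slc1a2 UMIs at P14, 56.2% in the control, and 44.7%, 64.2% and 78.3% after 24 h, 48 h and 96 h.

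Rhbg, which moves ammonia across the membrane, was highest at P14. Its level was 9.25 CPM at P14 (8.52 to 10.0), 4.28 CPM in the control (3.24 to 5.55), 2.56 CPM at 24 h (1.90 to 3.38), 5.04 CPM at 48 h (4.12 to 6.10) and 3.80 CPM at 96 h (2.83 to 4.99). The P14 library lay above the 4 adult libraries without overlap, by 0.96 on the log2 scale against the control (past 2-fold at 1.23 with TMM scaling, 1.11 with 5 to 40% mitochondrial UMIs and 2.94 with a marker limit of 3%, but -0.50 with 10 to 20% mitochondrial UMIs).

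Oat, which turns ornithine into a precursor of glutamate and proline, changed most across the libraries in the hepatocytes of the main gate. Its level was 58.2 CPM at P14 (56.4 to 60.1), 493 CPM in the control (481 to 505), 1840 CPM at 24 h (1821 to 1859), 740 CPM at 48 h (729 to 752) and 495 CPM at 96 h (483 to 507). P14 stood 3.06 log2 units lower than the control (-3.06) and 24 h stood 1.90 higher, while 96 h lay on the control at 0.01. The 96 h value rested on the gate, at -2.99 with 10 to 20% mitochondrial UMIs and 1.45 with a marker limit of 3%. With 10 to 20% mitochondrial UMIs the 24 h value was 0.43, and with a marker limit of 3% the P14 value was -0.88, both short of 2-fold. Under these gates another member changed by a larger fold than Oat. In the narrower window Glul spanned 27.4 to 1288 CPM and Oat 73.8 to 1608 CPM. With the 3% limit Slc1a2 spanned 0.294 to 15.6 CPM and Oat 58.2 to 672 CPM. Oat RNA was also found in other barcodes, where 24.9% of T or NK barcodes in the control and 36.6% at 24 h had an Oat UMI at 2000 UMIs, against 28.1% and 62.8% of hepatocytes. In the control the hepatocyte share lay within the interval of the T or NK share (21.8 to 28.2%), and at 24 h it lay above it (30.6 to 42.9%).

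Among the feedback genes, Axin2, a scaffold of the complex that destroys beta-catenin and a common reporter of Wnt signalling, was highest at 24 h. Its level was 3.76 CPM at P14 (3.31 to 4.27), 2.25 CPM in the control (1.52 to 3.22), 8.51 CPM at 24 h (7.26 to 9.90), 3.12 CPM at 48 h (2.41 to 3.98) and 3.13 CPM at 96 h (2.25 to 4.22). The 24 h library lay above the other 4 without overlap, by 1.55 on the log2 scale against the control from 166 and 30 UMIs (0.60 with 10 CPM added in place of 1). T or NK barcodes had 8.48 to 13.3 CPM of Axin2, more than hepatocytes in every library, so Axin2 is not a gene those barcodes lack.

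Lgr5 and the ubiquitin ligases Rnf43 and Znrf3, which remove Frizzled receptors unless R-spondin holds them off, varied less. Lgr5 was 5.03 CPM at P14 (4.50 to 5.61), 3.91 CPM in the control (2.92 to 5.12), 6.20 CPM at 24 h (5.15 to 7.41), 7.01 CPM at 48 h (5.92 to 8.24) and 2.90 CPM at 96 h (2.06 to 3.97). The 24 h and 48 h libraries lay above the control and 96 h without overlap, yet no change of Lgr5 against the control reached 2-fold in these hepatocytes. With a marker limit of 3%, which keeps 410 control cells with 3 Lgr5 UMIs, the P14 ratio was 2.00, and at 24 h and 48 h (1.46 and 1.33) neither library reached the 5 CPM set below for a call. With 10 to 20% mitochondrial UMIs Lgr5 had no UMI at 96 h and 10 UMIs in the control (8.26 CPM), which is at least 3.12-fold lower when 3 counts are allowed at 96 h (2.65 CPM). Rnf43 ranged from 5.04 CPM at 48 h to 8.79 CPM in the control, and Znrf3 from 8.50 CPM at 48 h to 12.9 CPM in the control. Neither was past 2-fold in any of the 6 comparisons made in these hepatocytes.

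Tbx3, a repressor that marks the Wnt-dependent program, was 9.42 CPM at P14 (8.68 to 10.2), 13.3 CPM in the control (11.4 to 15.4), 23.5 CPM at 24 h (21.4 to 25.8), 13.5 CPM at 48 h (12.0 to 15.2) and 10.8 CPM at 96 h (9.11 to 12.7). The 24 h library again lay above all others, at 0.78 on the log2 scale against the control, short of 2-fold (1.68 with a marker limit of 3%, -0.37 with 10 to 20% mitochondrial UMIs). Cyp1a2 was 187 CPM at P14, 319 CPM in the control, 270 CPM at 24 h, 339 CPM at 48 h and 296 CPM at 96 h, a range in which no comparison reached 2-fold. Against the control it stood at -1.47, -1.15, -0.63 and -1.22 from P14 to 96 h with 10 to 20% mitochondrial UMIs, and at 0.93, 0.78, 1.77 and 1.41 with a marker limit of 3%.

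Counted over the group, a gene was called past 2-fold when the log2 ratio reached 1 in size and 1 of the libraries had at least 5 CPM. At P14, 2 of 9 usable members were lower than in the control (Oat and Slc1a2) and none higher, where 13.8% of all genes were lower and 7.89% higher. Over all genes the P14 ratio had a median of -0.26, and relative to it Oat stood at -2.80 and Slc1a2 at -2.24. At 24 h, 2 of 9 were higher (Axin2 and Oat) and 2 lower (Glul and Slc1a2), against 8.51% and 7.13% of all genes. Axin2 reached 5 CPM only at 24 h, so it could enter a comparison with that library only as higher there. At 48 h only Slc1a2 was called, as lower, of 9 usable members (7.63% of all genes lower, 8.3% higher). At 96 h none of 7 was called (1.88% lower, 4.07% higher). From 24 h to 48 h Axin2 and Oat were lower, by -1.21 and -1.31 (1.76% of all genes lower, 1.78% higher), and from 48 h to 96 h Lgr5, which was under 5 CPM at 96 h, was lower by -1.04 (4.24% lower, 4.38% higher). These last changes were short of 2-fold with a marker limit of 3%, at -0.90 for Axin2, -0.94 for Oat and -0.52 for Lgr5. Axin2 and Oat were also short of it with 10 to 20% mitochondrial UMIs, at -0.66 and -0.88, and so were Axin2 (-0.50) and Lgr5 (-0.40) with 10 CPM added in place of 1. The comparisons against the control share that 1 library.

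These counts depended on the hepatocyte gate. Under any gate, a member with less than 5 CPM in either library of a comparison could be called only as higher in the other library. With 10 to 20% mitochondrial UMIs, 8 of 9 usable members were lower than in the control at 96 h (7.75% of all genes), namely Glul (-5.50), Slc1a2 (-4.80), Oat (-2.99), Tbx3 (-1.26), Cyp1a2 (-1.22), Znrf3 (-1.14), Rhbg and Lgr5. The last 2 had no UMI at 96 h; Rhbg, with 19 UMIs in the control (15.7 CPM), was at least 5.92-fold lower. That window leaves 53 cells at 96 h, 1 of them Glul-high, and 87 in the control, 9 of them Glul-high. In it 5 of 9 members were lower at P14, 4 of 10 at 24 h and 2 of 9 at 48 h (15.8%, 9.95% and 10.7% of all genes), and Axin2 alone was higher, at 24 h (10.4%). With a marker limit of 3%, Tbx3, Oat and Cyp1a2 were higher at 48 h and 96 h (3 of 7 each, against 8.53% and 4.6% of all genes). Under the same limit Axin2, Tbx3 and Oat were higher at 24 h (3 of 8, against 7.25%), and Glul, Lgr5, Tbx3 and Rhbg at P14 (4 of 9, against 8.39%). This limit left Axin2, Lgr5, Tbx3 and Rhbg at 0.337, 0.506, 2.36 and 0.337 CPM in the control. Against the control these members could therefore be called only as higher. Glul and Slc1a2 were then lower at 24 h and 48 h (8.46% and 7.6% of all genes), and no member was lower at P14 or 96 h. Slc1a2 was lower than in the control at 24 h and 48 h, and Glul at 24 h, under the main gate and both of these. Under the 3% limit Slc1a2 rested on 4 and 2 UMIs at 24 h and 48 h, with no Glul-high cell in either library and 1 in the control. With 5 to 40% mitochondrial UMIs Slc1a2 was lower at both times, but Glul at 24 h was not called (-0.99). From 48 h to 96 h the gates gave opposite directions. Glul and Slc1a2 were lower with 10 to 20% mitochondrial UMIs, by -2.90 and -2.18, as were Lgr5, Rhbg and Oat (5 of 9 members, against 7.75% of all genes), and higher with the 3% limit, by 1.29 and 3.68 (2 of 7, against 4.78%). From 24 h to 48 h Rhbg alone was called with 10 to 20% mitochondrial UMIs, as higher (1.58, 1 of 10, against 2.81% of all genes), and no member with the 3% limit.

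Within each library, the other 9 members were next compared between Glul-high and Glul-negative cells, a contrast in which Glul itself is fixed by the choice of cells. All 9 were past 2-fold higher in Glul-high cells at P14, in the control and at 96 h, where 2.27%, 7.56% and 10.7% of all genes were higher. At 24 h and 48 h 8 of 9 were, with Rnf43 the exception, where 12.5% and 5.26% of all genes were higher. None was lower in any library (1.6%, 8.65%, 12%, 7.34% and 7.95% of all genes, from P14 to 96 h). Axin2, Lgr5, Rhbg, Slc1a2 and Rnf43 reached 5 CPM in some libraries only through the Glul-high class, where they could count only as higher. Among members at 5 CPM or more in Glul-negative cells, a limit chosen after seeing the data, 5 of 5 at P14, 6 of 6 in the control, 7 of 8 at 24 h, 5 of 5 at 48 h and 6 of 6 at 96 h were higher, where 1.28%, 3.66%, 6.46%, 2.54% and 5.56% of all genes under that limit were. The median log2 ratio of the 9 was 2.53 at P14, 3.07 in the control, and 2.12, 2.43 and 3.90 after 24 h, 48 h and 96 h, beside 0.15, 0.05, 0.08, 0.03 and 0.14 over all genes. The Glul-high groups hold 15 to 62 cells of 1 library each, so these are differences between cells, not between animals.

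**Figure D3:**
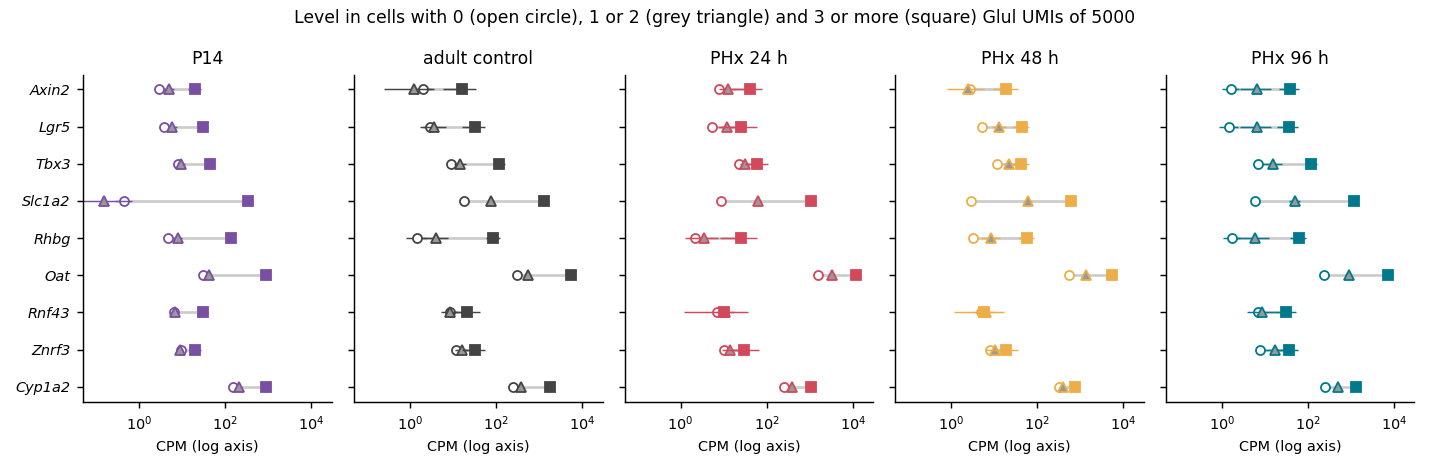
Level (CPM, log axis) of the other 9 genes in cells with 0, 1 or 2, and 3 or more Glul UMIs of 5000, 1 panel per library, with exact 95% Poisson intervals (lower ends under the axis limit are not drawn). Squares stand to the right of circles for all 9 genes in all 5 panels, with Slc1a2 farthest apart and Rnf43 closest at 24 h and 48 h.

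Slc1a2 showed the widest contrast in every library. Its level in Glul-high cells was 331 CPM at P14 (306 to 358), 1276 CPM in the control (1163 to 1396), 1093 CPM at 24 h (951 to 1249), 619 CPM at 48 h (554 to 691) and 1162 CPM at 96 h (1057 to 1274). In Glul-negative cells it was 0.445, 17.9, 8.93, 2.95 and 6.08 CPM. The transporter was thus higher in Glul-high cells by 7.85, 6.08, 6.78, 7.29 and 7.36 log2 units.

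A smaller share of Glul-high cells had a Slc1a2 UMI at P14 than in each adult library. A Slc1a2 UMI of 5000 was found in 17 of 62 Glul-high cells at P14 (interval 16.9 to 40.2%) and in 19 of 21 in the control (interval 69.6 to 98.8%). After surgery it was found in 15 of 15 cells at 24 h (interval 78.2 to 100%), 12 of 16 cells at 48 h (interval 47.6 to 92.7%) and 17 of 19 cells at 96 h (interval 66.9 to 98.7%). The P14 interval lay below those of the 4 adult libraries without overlap. At P14, Slc1a2 was in 13 of 26 cells with 10 or more Glul UMIs and in 4 of 36 cells with 3 to 9, whereas in the control it was in 13 of 13 and 6 of 8. None of 432 Glul-low cells at P14 had a Slc1a2 UMI of 5000, which allows a share of cells with a UMI, not of expressing cells, of up to 0.850%; without thinning these cells held 2 Slc1a2 UMIs. In the other direction, 17 of 22 Slc1a2-positive cells at P14, 29 of 43 at 24 h, 17 of 18 at 48 h and 20 of 27 at 96 h had a Glul UMI, and 41 of 86 did in the control.

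Rhbg showed the opposite order between ages, with P14 higher than the control in Glul-high cells by 0.61 log2 units (0.09 to 1.20). In Glul-high cells it was 132 CPM at P14 (116 to 149), 85.9 CPM in the control (58.8 to 121), 25.4 CPM at 24 h (8.25 to 59.3, from 5 UMIs), 57.5 CPM at 48 h (38.8 to 82.1) and 61.8 CPM at 96 h (39.6 to 92.0). A Rhbg UMI was found in 23 of 62 Glul-high cells at P14, 5 of 21 in the control and 2 of 15, 2 of 16 and 2 of 19 after surgery. In Glul-negative cells it stayed between 1.43 CPM in the control and 4.73 CPM at P14.

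Oat was present in Glul-high cells almost without exception in the adult, in 21 of 21 cells in the control, 15 of 15 at 24 h, 16 of 16 at 48 h and 18 of 19 at 96 h, against 44 of 62 at P14. Its level there was 873 CPM at P14, 5467 CPM in the control, 12227 CPM at 24 h, 5573 CPM at 48 h and 7292 CPM at 96 h. The contrast with Glul-negative cells was narrowest at 24 h, at 2.96 log2 units, and between 3.37 and 4.92 in the other libraries. For Cyp1a2 the contrast was narrowest at 48 h, with 2.53 at P14, 2.81 in the control, and 2.12, 1.28 and 2.45 after 24 h, 48 h and 96 h.

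The Wnt feedback and regulator genes were sparse even in Glul-high cells. Lgr5 was higher there by 2.69, 3.07, 2.04, 2.85 and 3.89 log2 units from P14 to 96 h, yet a UMI of 5000 was seen in 6 of 62, 2 of 21, 1 of 15, 1 of 16 and 2 of 19 cells. Axin2 was higher by 2.41, 2.51, 2.25, 2.43 and 3.90 from 6 to 38 UMIs in the Glul-high cells. Tbx3 was higher by 2.30, 3.54, 1.41, 1.77 and 3.96, and Znrf3 by 1.02, 1.41, 1.51, 1.17 and 2.06. Rnf43 was higher by 2.10 at P14, 1.26 in the control and 2.01 at 96 h, and at 24 h and 48 h, with 2 and 3 UMIs in the Glul-high cells, its counting intervals spanned 0.

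The zone of the Glul-high cells was read from other genes. Of 26 further pericentral genes, 13 at P14, 21 in the control, and 17, 15 and 20 after 24 h, 48 h and 96 h were past 2-fold higher in Glul-high cells, and 0 or 1 lower. From P14 to 96 h, 2.27%, 7.56%, 12.5%, 5.26% and 10.7% of all genes were higher, and 1.6%, 8.65%, 12%, 7.34% and 7.95% lower. Of the 20 periportal genes, 17 of 19 usable at P14, 20 of 20 in the control, 18 of 20 at 24 h, 19 of 20 at 48 h and 20 of 20 at 96 h were lower and none was higher. These counts include Alb, at -0.58 at P14 and -1.40 in the control. Alb is part of the rule that defines hepatocytes, so it is not read as a sign of the zone. Cyp2e1, a pericentral P450, was higher by 1.29, 2.22, 2.10, 1.67 and 2.29 log2 units, and Ass1, a periportal urea-cycle enzyme, was lower by -1.84, -1.99, -1.42, -3.53 and -2.30. The 19 periportal genes other than Alb summed to 3868, 3392, 3156, 1095 and 2535 CPM in Glul-high cells, against 10449, 15198, 13371, 7485 and 13451 CPM in Glul-negative cells. Glul-high cells thus carried the pericentral pattern by which the 10 genes are named.

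Libraries were also compared within the same Glul class. The classes are set by Glul UMIs, and Glul itself was lower at 24 h over all hepatocytes, so a class may hold different cells in each library. In Glul-negative cells Oat rose from 302 CPM in the control to 1570 CPM at 24 h (2.38 log2 units), and in Glul-high cells from 5467 to 12227 CPM (1.16). Glul-high cells held 31.0% of the Oat UMIs in the control, where they were 2.27% of hepatocytes, and 6.70% at 24 h, where they were 1.28%. Glul-negative cells, which are those with no Glul UMI of 5000, held 76.9% of the Oat UMIs at 24 h and 48.3% in the control. They were 89.2% of hepatocytes at 24 h and 79.1% in the control, so the shares of UMIs also reflect the size of the classes. Free RNA at the load of empty droplets would give an Oat UMI of 5000 to 27.1% of hepatocytes at 24 h and 17.4% in the control, against 76.2% and 44.8% found, and its part in these values was not tested.

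Axin2 and Tbx3 were also higher at 24 h in Glul-negative cells. Axin2 in Glul-negative cells was 2.00 CPM in the control and 7.74 CPM at 24 h (1.54), and in Glul-high cells it was 16.1 CPM (5.91 to 35.1) and 40.7 CPM (17.6 to 80.1), which overlap. Tbx3 in Glul-negative cells went from 9.22 to 22.3 CPM (1.19). In Glul-high cells it stood at 118 CPM in the control (85.9 to 159) and 61.0 CPM at 24 h (31.5 to 107), which overlap. The interval of their log2 ratio, -2.011 to -0.009, only just left out 0. At 48 h Tbx3 in Glul-high cells was 42.2 CPM (26.4 to 63.9) and at 96 h 121 CPM (89.0 to 161).

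Cyp1a2 and Slc1a2 in Glul-high cells were lowest after surgery at 48 h. Cyp1a2 there was 1770 CPM in the control, 1087 CPM at 24 h, 774 CPM at 48 h and 1340 CPM at 96 h, while in Glul-negative cells it moved only between 245 and 319 CPM in the adult libraries. Slc1a2 in Glul-high cells was -0.22 log2 units from the control at 24 h, with an interval that includes 0, -1.04 at 48 h and -0.13 at 96 h. In Glul-negative cells Slc1a2 was lower than in the control at every other stage, where free RNA was also lighter; the part of free RNA in that difference was not tested. After subtraction of the empty-droplet profile the Slc1a2 ratio of the whole libraries against the control was -2.43 at P14, -1.24 at 24 h, -1.28 at 48 h and -0.44 at 96 h.

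**Figure D4:**
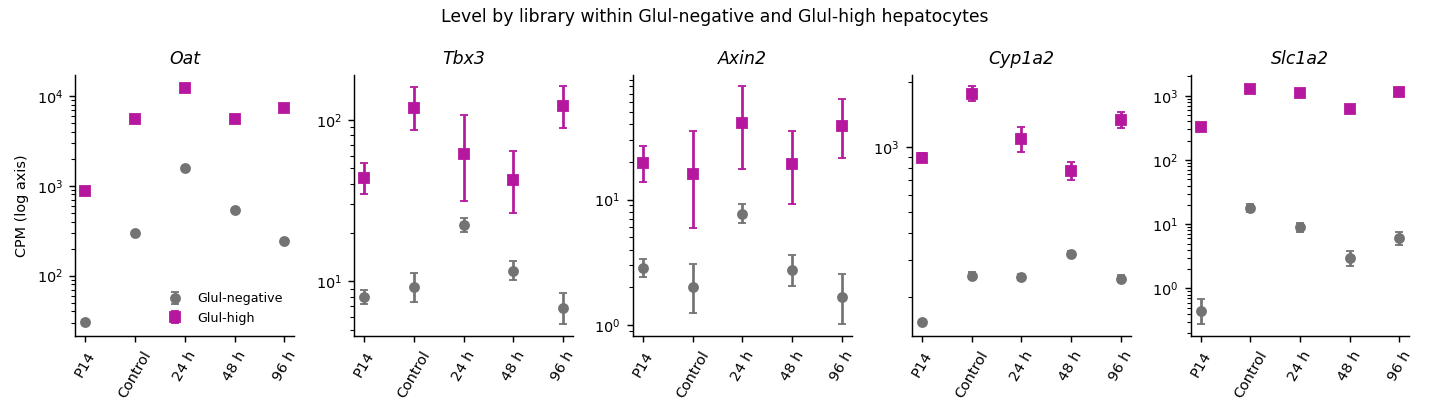
Level (CPM, log axes that differ between panels) of Oat, Tbx3, Axin2, Cyp1a2 and Slc1a2 in Glul-negative (grey circles) and Glul-high (magenta squares) hepatocytes of each library, with exact 95% Poisson intervals. At 24 h Oat is higher than in the control in both classes. Tbx3 is then higher in Glul-negative cells and stands lower in Glul-high cells, where the 2 intervals overlap. Cyp1a2 in Glul-high cells stands at 774 CPM at 48 h.

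Cell-cycle genes were read in the same cells after surgery, when hepatocytes divide. A cell was called mitosis-positive with at least 3 of 22 mitosis genes detected of 5000 UMIs, and replication-positive with at least 3 of 22 replication genes. Mitosis-positive Glul-high cells were 9 of 62 at P14, 0 of 21 in the control, 1 of 15 at 24 h (6.67%, 0.169 to 31.9%), 11 of 16 at 48 h (68.8%, 41.3 to 89.0%) and 2 of 19 at 96 h. In the hepatocytes below the Glul-high limit the shares were 11.1%, 0.442%, 13.7%, 39.0% (35.4 to 42.7%) and 7.45%. The intervals of both classes overlapped in every library. Replication-positive Glul-high cells were 9 of 62, 0 of 21, 5 of 15, 9 of 16 and 4 of 19, against 9.93%, 1.77%, 45.8%, 27.9% and 6.91%; at 48 h the intervals, 29.9 to 80.3% and 24.6 to 31.4%, overlapped narrowly.

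**Figure D5:**
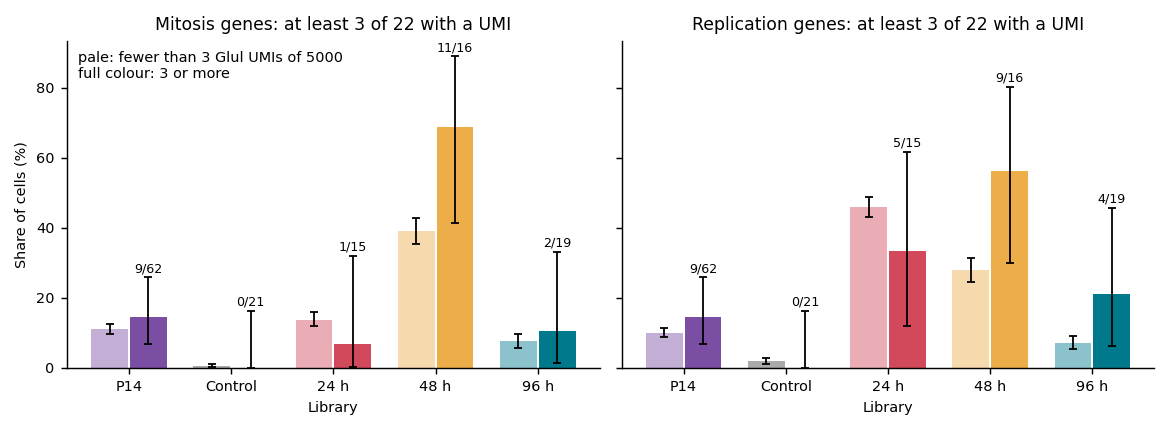
Share of cells (%) positive for mitosis genes (left) and replication genes (right) among Glul-high cells (full colour, counts above) and all other hepatocytes (pale), with exact 95% binomial intervals. At 48 h 11 of 16 Glul-high cells were mitosis-positive; the intervals of both classes overlap in all 5 libraries.

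Lgr5 differed between cycling and other cells after surgery. The mitosis-positive and replication-positive classes share cells, so their values are not independent of each other. At 24 h it was 14.0 CPM in mitosis-positive cells (10.2 to 18.7), 9.27 CPM in replication-positive cells (7.41 to 11.5) and 2.86 CPM in cells positive for neither (1.90 to 4.13). At 48 h the values were 10.7, 10.8 and 3.98 CPM and at 96 h 8.17, 8.34 and 2.31 CPM. At P14 no such difference was seen, with 4.59, 4.10 and 5.19 CPM. Oat was also higher in mitosis-positive cells than in cells positive for neither at 24 h (2295 against 1504 CPM), 48 h (885 against 598 CPM) and 96 h (955 against 435 CPM), and on the same comparison Glul was lower at 24 h (78.5 against 115 CPM), higher at 48 h (195 against 132 CPM) and near equal at 96 h (221 against 211 CPM). Slc1a2 was higher in mitosis-positive cells at 24 h (44.1 against 16.8 CPM), 48 h (36.9 against 11.6 CPM) and 96 h (83.3 against 37.3 CPM), but not at P14 (9.90 against 11 CPM). The Glul and Slc1a2 values rest on few cells, since the mitosis-positive classes held 1, 11 and 2 Glul-high cells at 24 h, 48 h and 96 h. Without Glul-high cells, a split made after seeing the data, Slc1a2 was 39.1 against 5.88 CPM at 24 h, 13.4 against 3.28 CPM at 48 h and 48.4 against 5.87 CPM at 96 h. Glul, by which the removed cells were chosen, then stood at 51.6 CPM in mitosis-positive cells against 20.9 CPM at 24 h. It was 35.7 against 32.6 CPM at 48 h and 60.3 against 22.4 CPM at 96 h. At 24 h the removal took out 34.5% of the Glul UMIs of mitosis-positive cells and 82.1% of those of cells positive for neither. For Slc1a2 it took out 11.72% against 65.45% at 24 h, and the same removal took 65.13% against 72.07% at 48 h and 44.12% against 84.63% at 96 h. Without thinning, 49, 38 and 41 hepatocytes held any Slc1a2 UMI after 24 h, 48 h and 96 h. The Glul and Slc1a2 values without Glul-high cells are thus partly set by the choice of cells. They are not read as a difference between cycling and other cells.

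The rest of the pathway was read from lists. Beside the counts below, 13.8%, 7.13%, 7.63% and 1.88% of all genes were lower than in the control from P14 to 96 h, and 7.89%, 8.51%, 8.3% and 4.07% were higher. Of 14 Frizzled receptors and co-receptors, 3 of 9 usable genes were past 2-fold lower than in the control at P14, 4 of 8 at 24 h, 4 of 8 at 48 h and 2 of 8 at 96 h, and 1 was higher, at P14 (Lrp5, a co-receptor, by 1.25). The list medians were -0.74, -1.07, -0.88 and -0.36, beside -0.26, 0.00, -0.08 and 0.04 over all genes. Fzd7 stood at -2.68, -2.14, -2.46 and -1.74, Fzd4 at -1.07, -2.02, -2.24 and -1.05, and Fzd8 at 0.18, -2.57, -2.45 and -0.57. Fzd4, Fzd5, Fzd7 and Fzd8 were the genes lower at 24 h and 48 h.

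Inside the cell, 3 of 13 usable genes of the transduction machinery were lower at P14, 2 at 24 h, 1 at 48 h and none at 96 h. Tcf7, a TCF factor that T cells also express, was higher at 24 h by 2.11 and at 48 h by 1.42. Summed T or NK markers were 3.89 and 10.1 CPM there, against 19 CPM in the control, and the part of T cells in the Tcf7 values was not tested. Tcf7l2, another TCF factor, was lower at P14 by -1.32 and at 24 h by -1.01. Ctnnb1, which encodes beta-catenin, was 120 CPM at P14, 188 CPM in the control and 193, 156 and 177 CPM after surgery, and was not called. Of 15 other targets and inhibitors, 2 of 5 usable genes were higher and 1 lower at P14, 1 of 4 higher and none lower at 24 h, and 1 of 4 higher and 1 lower at 48 h and at 96 h. Wif1, a secreted Wnt inhibitor, had 356 UMIs at P14 (5.51 CPM) and none in the control, at least 24.5-fold higher against 3 counts. It was usable only through the P14 library, where it could count only as higher. Ccnd1, a cyclin of cell-cycle entry, was higher by 2.01, 3.81, 2.42 and 1.95, and Myc was lower by -2.95 at P14, -2.01 at 48 h and -1.79 at 96 h. Notum, a secreted Wnt inactivator, stayed between 12.5 and 27.2 CPM. None of 6 Wnt and R-spondin ligand genes reached 5 CPM in hepatocytes summed over any library.

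The zonal lists moved in both directions against the control, beside the shares of all genes given for the pathway lists. Of 24 usable pericentral genes other than the members, 7 were higher and 9 lower at P14, 7 and 7 at 24 h, 7 and 3 at 48 h, and 2 and 0 at 96 h. Gstm3, a glutathione transferase, stood at -1.78, 4.74, 1.59 and 1.85, and Cyp2c37, a P450, at 1.85, -2.17, -0.68 and -0.74. Of 20 periportal genes, 6 were lower at P14, 5 at 24 h, 9 at 48 h and 1 at 96 h, and 1, 0, 0 and 2 were higher. Cyp2f2, a periportal P450, stood at -5.87, -1.91, -2.78 and -1.07.

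The genes most like Glul were ranked by the smallest value, over the 5 libraries, of the log2 ratio between Glul-positive and Glul-negative cells, among 8673 genes with a mean of at least 5 CPM. In this contrast members were past 2-fold higher in 5 of 9 usable cases at P14, 6 of 8 in the control, 4 of 9 at 24 h, 5 of 9 at 48 h and 8 of 9 at 96 h, where 0.224%, 0.577%, 0.754%, 0.768% and 3.1% of all genes were higher. None was lower (0.0707%, 0.138%, 0.428%, 0.373% and 1.39% of all genes). Usable members under 5 CPM in Glul-negative cells could count only as higher. At P14 these were Axin2 (6.76 against 2.85 CPM in Glul-negative cells), Lgr5 (9.02 against 3.82), Slc1a2 (43.0 against 0.445) and Rhbg (24.1 against 4.73). In the control they were Lgr5 (7.50 against 2.95) and Rhbg (15.0 against 1.43), and other libraries held such members too. The first 10 were Slc1a2 (3.64), Cyp2a5 (1.5), Oat (1.45), Cib2 (1.11), Lgr5 (1.06), Lhpp (0.84), Ces2c (0.78), Nxpe2 (0.72), Acot1 (0.72) and Cyp2c55 (0.63). Members Slc1a2, Oat and Lgr5 thus took ranks 1, 3 and 5, followed by Tbx3 at rank 11 and Cyp1a2 at rank 12. Rnf43 was at rank 34 and Znrf3 at rank 171, while Axin2 and Rhbg fell below the level limit. Cyp2a5, a P450, was higher in Glul-positive cells by 1.5 to 3.29 log2 units. Ranked on Glul-high over Glul-negative cells instead, the first 10 were Slc1a2 (6.08), Cyp2a5 (3.51), Oat (2.96), Cib2 (2.80), Ces2c (2.58), Lhpp (2.34), Lgr5 (2.04), Cyp4a10 (1.44), Prodh (1.44) and Cyp2c55 (1.44). Tbx3 was then at rank 11, Cyp1a2 at 20, Znrf3 at 32 and Rnf43 at 344.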

How the data were processed

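Each library is a sparse matrix of counts of unique molecular identifiers per gene and barcode, deposited by the authors as whole numbers without normalization, with 6794880 barcodes, empty droplets included. Per the submitters' processing notes, bcl2fastq 2.17.1.14, Cell Ranger and Seurat 3.1 were used on build mm10; the matrices carry software version 3.0.2, per the file headers. Cell Ranger's annotation is not given in the sources used here.

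The 10 genes and the lists were chosen with earlier results of these data known. Counts of hepatocytes were summed per library (13316829 to 64576753 UMIs without the 13 mitochondrial genes) and given as CPM with exact Poisson intervals; shares carry exact Clopper-Pearson intervals and log2 ratios exact conditional binomial ones. Log2 ratios add 1 CPM to both values; their intervals do not. Shares used cells thinned to 5000 UMIs, so that depth did not set them. Doublets were kept in the main values and removed with Scrublet (scanpy 1.11.5) as an alternative. Free RNA was read from barcodes ranked 20001 to 60000, and T or NK barcodes had at least 3 marker UMIs, at least 2000 UMIs and under 10% mitochondrial UMIs. Named genes were all members, the 10 most like Glul, and from each list up to 4 of the largest changes at a mean of at least 5 CPM. Ctnnb1, Notum, Cyp2e1, Ass1 and Fzd5 were added after their values were seen, and Wif1 was named although its mean was below that limit. Alternatives were other gates, scalings (all UMIs, TMM in edgeR 4.0.16), pseudocount, thinning and free-RNA subtraction. The ratio script was checked on simulated data. Promoters and positions come from RefSeq GRCm38.p6, the mm10 assembly.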

Additional observations from a re-analysis of the deposited data

Results flagged for a closer look

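In 3 cases the change of a member other than Glul, whose UMIs define the classes, against the adult control had opposite signs in Glul-negative and Glul-high cells, with both counting intervals off 0; the difference between the classes was not tested, since each group is 1 library. Tbx3 at 24 h was 1.19 log2 units higher in Glul-negative cells and at -0.94 in Glul-high cells, the latter from 12 UMIs at 24 h with an interval of -2.011 to -0.009. Cyp1a2 at 48 h was at 0.34 in Glul-negative cells and at -1.19 in Glul-high cells, from 404 UMIs at 48 h. Oat at 96 h was at -0.33 in Glul-negative cells and at 0.41 in Glul-high cells, from 2830 UMIs.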

How the results depend on the processing

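No paired analysis was possible because each group is 1 library. The limits lie in the hepatocyte gate and in the 15 to 62 Glul-high cells per library. Removing doublets or lowering the marker limit to 0.3% moved none of 160 values beyond counting error.

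With 10 to 20% mitochondrial UMIs (53 to 933 cells), the Glul ratio against the control was -2.93 at P14, -2.62 at 24 h, -2.61 at 48 h and -5.50 at 96 h; with 5 to 40% it was -0.49, -0.99, -0.34 and -0.18. With a marker limit of 3% (144 to 2106 cells) it was 1.40, -1.69, -1.07 and 0.23. All-UMI scaling gave -0.59 at P14, TMM -0.38 at P14 and -0.45 at 48 h, and at least 10000 UMIs -1.29 at 24 h. The share with a Glul UMI was, with 10 to 20% mitochondrial UMIs, 25.9% at P14, 27.6% in the control, 12.7% at 24 h and 17.2% at 48 h; with the 3% limit 7.64% at 24 h, 8.41% at 48 h and 16.6% in the control; with another thinning seed 21.4% at P14; without thinning, from P14 to 96 h, 73.2%, 51.5%, 30.3%, 44.9% and 27.9%; and at 3 or more UMIs 2.94%, 2.27%, 1.28%, 2.23% and 2.46%.

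Signs of ratios past 2-fold turned under the 3% limit for Slc1a2 at P14 (0.25) and, between Glul-positive and Glul-negative cells, in the control for Cyp1a2 (-0.022), Lgr5 (-0.68), Slc1a2 (-0.067) and Tbx3 (-0.84) and at 48 h for Lgr5 (-2.02), Oat (-0.032), Rhbg (-0.88), Slc1a2 (-0.40) and Tbx3 (-0.022). They turned with 10 to 20% mitochondrial UMIs at 96 h for Axin2 (-1.01), Cyp1a2 (-0.26), Oat (-0.33) and Slc1a2 (-3.33). The 3% limit leaves 1 Glul-high cell in the control and none at 48 h, and the narrower window leaves 1 at 96 h. Ratios short of 2-fold turned too under both gates; for example, under the 3% limit Tbx3 (1.63) and Cyp1a2 (0.93) at P14 and Glul at P14 and 96 h were above the control. Of 352 alternative values of 38 ratios past 2-fold, 336 kept their sign and 310 stayed past 2-fold.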
